A study of Mus musculus with 2 samples.

Results

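Open chromatin was examined at 9 genes for transcription factors that set muscle fibre type: Sox6, Prox1, Tbx15, Maf, Mafa, Nfatc1, Nfatc2, Nfatc3 and Nfatc4. They were chosen by name, not by their signal, but with earlier results of these data known, from 21938 protein-coding genes of the annotation. DNase-seq, in which the enzyme DNase I cuts accessible DNA and the cut ends are sequenced, had been carried out on the gastrocnemius (calf muscle) of female B6CASTF1/J mice, first-generation hybrids of C57BL/6J and CAST, aged 14 days. The series held 1 group of 2 biological replicates, with no treatment and no control group. The replicates were separate tissue samples under a single donor record, and both sample descriptions read "3x Females", so each may pool animals.

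Skeletal muscle mixes slow, oxidative fibres with fast, glycolytic ones, and each fibre class expresses its own myosin heavy chain. Sox6 is an HMG-box factor known to repress slow-fibre genes, Tbx15 is a T-box factor of glycolytic fibres, and the large MAF proteins, Maf and Mafa among them, are basic leucine zipper factors that activate the fastest myosin gene, Myh4. Prox1, a homeobox factor best known for specifying lymphatic endothelium, also supports slow-fibre genes, and the NFATc proteins carry nerve-driven calcium signals to the nucleus after the phosphatase calcineurin removes their phosphates.

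A peak is an interval that the authors called as accessible, and its signal is their own value per peak, with no unit stated. A shared site is a merged interval with an overlapping peak of both replicates in the strict, shorter peak lists. It was called a promoter site if its midpoint lay within 1 kb of a start of a protein-coding transcript, and otherwise a distal site of the gene with the nearest such start, up to 50 kb away. A gene's starts that followed each other within 300 bp were counted as 1 start, numbered from the most upstream. A footprint is a short protected stretch inside open chromatin, here those deposited at a false discovery rate of 0.01. Replicate 1 had 87558 strict and 142031 permissive peaks with 338694 footprints, and replicate 2 had 79562 and 133321 with 301069. These counts are the measure of depth, with read totals not given in the sources used here. In bulk tissue, an opening in few cells and a weak opening in all cells cannot be told apart.

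All 9 genes had open chromatin in both replicates, at promoters and away from them. Sequences of NFATc sites are printed first, for some of the sites with motif matches and not for all. Those shown were picked for matches to the binding motifs of NFAT or of its partner AP-1 (the Fos and Jun proteins), except the Nfatc3 promoter, which holds neither motif. They are the reference sequence of C57BL/6J (GRCm38, mm10, RefSeq assembly), + strand, 5′ to 3′, and the CAST allele of these F1 mice may differ. Capitals mark exact matches on either strand to NFAT (TGGAAA), AP-1 (TGANTCA), SOX (AACAAT), ETS (CCGGAAGT), SP/KLF (GGGCGG) or an E-box (CACGTG, the form bound by USF and MYC proteins), within the 150 bp around the midpoint of the site. A SOX match of the Nfatc2 promoter that lies outside this window is left in lower case.
Nfatc2 promoter, chr2:168601761-168602040: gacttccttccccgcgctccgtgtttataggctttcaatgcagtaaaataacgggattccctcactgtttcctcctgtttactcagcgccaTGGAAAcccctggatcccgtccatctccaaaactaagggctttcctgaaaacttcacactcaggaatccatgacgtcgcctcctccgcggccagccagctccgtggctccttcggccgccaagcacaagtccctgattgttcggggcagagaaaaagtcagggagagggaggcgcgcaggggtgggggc
Nfatc2 intron, strong site, chr2:168525001-168525180: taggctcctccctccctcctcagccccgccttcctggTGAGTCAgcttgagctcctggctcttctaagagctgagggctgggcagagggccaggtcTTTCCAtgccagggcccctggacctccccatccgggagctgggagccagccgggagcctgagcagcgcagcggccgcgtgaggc
Nfatc2 intron, weaker site, chr2:168544261-168544420: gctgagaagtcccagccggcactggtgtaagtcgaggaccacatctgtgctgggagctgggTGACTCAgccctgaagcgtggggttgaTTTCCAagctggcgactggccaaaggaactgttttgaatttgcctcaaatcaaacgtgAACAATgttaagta
Nfatc3 promoter, chr8:106059401-106059555: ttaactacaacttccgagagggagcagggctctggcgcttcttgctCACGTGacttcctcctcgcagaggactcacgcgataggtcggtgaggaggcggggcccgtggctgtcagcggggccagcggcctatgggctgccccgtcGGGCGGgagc
Nfatc4 upstream, chr14:55814981-55815140: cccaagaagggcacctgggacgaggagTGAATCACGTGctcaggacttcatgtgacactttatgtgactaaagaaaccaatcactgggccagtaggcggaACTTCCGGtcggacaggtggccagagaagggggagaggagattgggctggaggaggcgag
Both intronic Nfatc2 sites printed here carried an NFAT and an AP-1 match, for which they were picked, and Nfatc2 has other intronic sites. All of these matches lay in footprints of both replicates. Counted from the first printed base, the matches sat at bases 97 to 102 and 38 to 44 of the strong site and at bases 89 to 94 and 62 to 68 of the weaker one. The close composite of these motifs, with AP-1 directly behind NFAT, was found at no site of the 9 genes. The Nfatc2 promoter held a further NFAT match, at bases 92 to 97, in footprints of both replicates. In the Nfatc3 promoter the E-box at bases 47 to 52 was footprinted in both replicates, and the SP/KLF match at bases 146 to 151 in replicate 1. The Nfatc3 site is printed up to the base before the second RefSeq start of the gene. At the upstream Nfatc4 site, AP-1 (bases 28 to 34) and the E-box (bases 33 to 38) overlap by their ends, and both, with the ETS match at bases 101 to 108, were footprinted in both replicates.

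For Sox6, Prox1, Tbx15, Maf and Mafa, the sequences shown hold E-boxes of the form bound by MyoD and myogenin (CAGCTG), MAF motifs (TGCTGAC), NFAT or SOX matches, again in capitals.
Sox6 intron, chr7:115510061-115510320: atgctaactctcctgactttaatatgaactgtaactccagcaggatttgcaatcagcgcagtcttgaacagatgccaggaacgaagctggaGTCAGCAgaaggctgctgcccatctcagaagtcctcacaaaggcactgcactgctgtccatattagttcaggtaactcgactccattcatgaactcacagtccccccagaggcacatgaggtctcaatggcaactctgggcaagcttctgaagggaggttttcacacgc
Prox1 coding exon, chr1:190161852-190162000: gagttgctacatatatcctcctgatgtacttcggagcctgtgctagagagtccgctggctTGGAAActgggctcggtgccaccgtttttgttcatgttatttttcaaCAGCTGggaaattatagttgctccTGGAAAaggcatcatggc
Tbx15 intron, chr3:99290401-99290600: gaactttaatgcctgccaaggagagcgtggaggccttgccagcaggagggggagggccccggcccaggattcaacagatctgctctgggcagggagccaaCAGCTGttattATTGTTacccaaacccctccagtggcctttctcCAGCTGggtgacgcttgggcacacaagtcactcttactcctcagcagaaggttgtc
Maf upstream, chr8:115709521-115709700: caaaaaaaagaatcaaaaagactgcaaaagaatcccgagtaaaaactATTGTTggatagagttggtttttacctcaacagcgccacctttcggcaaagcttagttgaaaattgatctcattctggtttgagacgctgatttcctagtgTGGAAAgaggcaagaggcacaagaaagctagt
Mafa upstream, in Zc3h3, chr15:75775077-75775260: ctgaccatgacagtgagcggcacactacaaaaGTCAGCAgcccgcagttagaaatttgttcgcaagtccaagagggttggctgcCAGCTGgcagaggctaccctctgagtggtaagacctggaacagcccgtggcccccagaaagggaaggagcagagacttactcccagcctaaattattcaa
Both E-boxes of the Tbx15 intron, at bases 101 to 106 and 145 to 150, lay in footprints of both replicates, and its SOX match lay in none. The Maf site, upstream of the gene, had its NFAT match (bases 149 to 154) in footprints of both replicates and its SOX match in none. In the Prox1 exon the first NFAT match (bases 61 to 66) was footprinted in both replicates, the second (bases 132 to 137) in replicate 1 and the E-box in neither. The Mafa-assigned site in Zc3h3 had a footprint of replicate 1 on its MAF match (bases 33 to 39) and footprints of both replicates on its E-box (bases 85 to 90). The MAF match of the Sox6 intron, at bases 92 to 98, lay in no footprint. A match describes letters of the reference and does not show that a factor was bound.

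The 9 genes had 25 annotated starts, and 18 of these had a strict peak in both replicates. One further start, Prox1 start 2, had a strict peak in 1 replicate, and 6 starts had none in either. All 9 genes had at least 1 shared promoter site, against 62.6% of all protein-coding genes, so the count alone says little about these 9. More of them had several such sites: 6 of 9 had at least 3, against 10.6% of all genes. Among genes with 2 or more starts, the count was 6 of 8, against 18.1%. At the 6 starts without a strict peak, the permissive lists added a peak of both replicates at 1 (Sox6 start 1, signal 0.297 and 0.558) and a peak of replicate 1 at another (Tbx15 start 1, signal 0.926). Around the other 4, Sox6 starts 3 to 5 and Nfatc4 start 4, no base within 1 kb was listed in the deposited per-base file, which lists false discovery rates below 0.05.

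**Figure D1:**
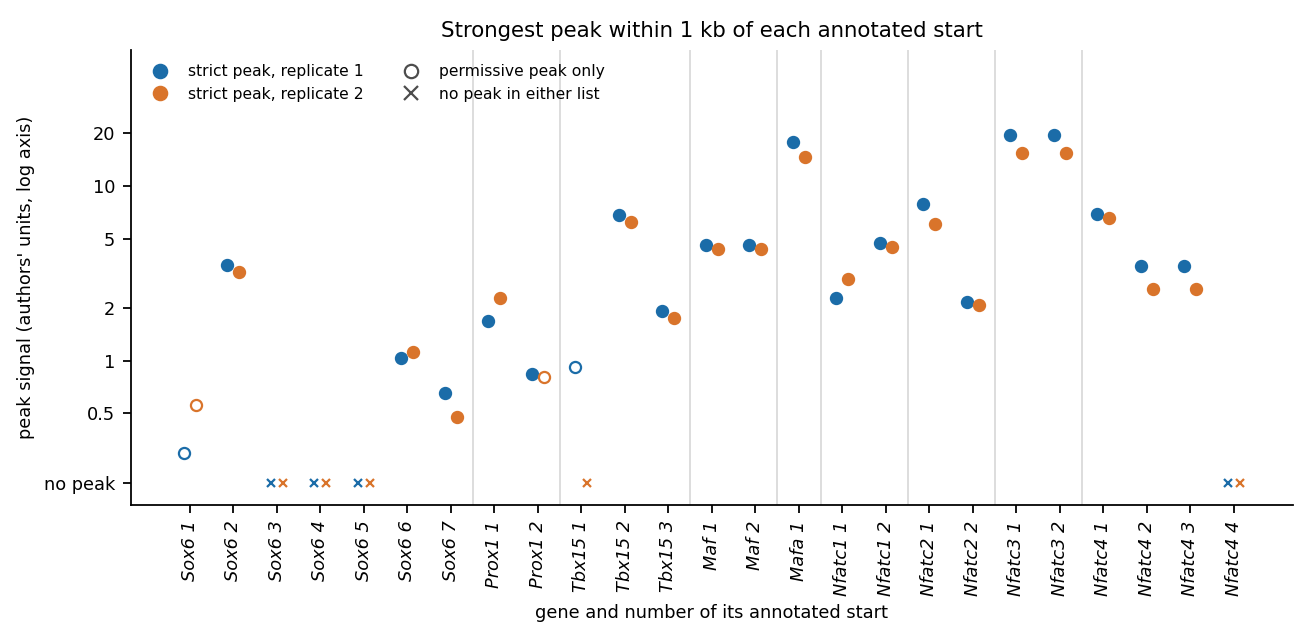
Signal of the strongest peak within 1 kb of each of the 25 annotated starts (log axis, authors' units), in replicate 1 (blue) and replicate 2 (orange). Filled points are strict peaks, open points are peaks of the permissive list alone, and crosses mark no peak in either list. Mafa and both Nfatc3 starts are highest, at 14.7 to 19.5, and 4 starts carry crosses in both replicates.

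Ordered by promoter signal within 1 kb of the GENCODE starts, the genes fell into levels that both replicates separated. The highest were Nfatc3, with 19.5 in replicate 1 and 15.5 in replicate 2, and Mafa, with 17.8 and 14.7. Their ranges over the replicates overlapped, so these 2 were not told apart by range, though Nfatc3 was the higher within each replicate. Nfatc2 (7.90 and 6.08), Nfatc4 (6.90 and 6.57) and Tbx15 (6.85 and 6.20) formed a second level with overlapping ranges. Nfatc1 (4.75 and 4.47) and Maf (4.59 and 4.38) overlapped each other below it. Sox6 (3.53 and 3.23) and Prox1 (1.69 and 2.29) were lower, and neither range overlapped a neighbour's. The 13729 genes with a shared promoter site had a median of 7.66 (quartiles 3.44 and 13.3), and the median of the 9 was 6.52. By mean signal, Nfatc3 and Mafa stood above the upper quartile of those genes, and Sox6 and Prox1 below the lower one. Sox6 was close to that bound (mean 3.38), and its replicate 1 value lay above it. The order depends on the window and on the starts. With a window of 2500 bp, Nfatc1 start 1 reached a mean of 15.1. On RefSeq starts Sox6 reached a mean of 5.37, above Nfatc1 and Maf, and Nfatc4 fell from the second level to 3.02, below all of them.

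**Figure D2:**
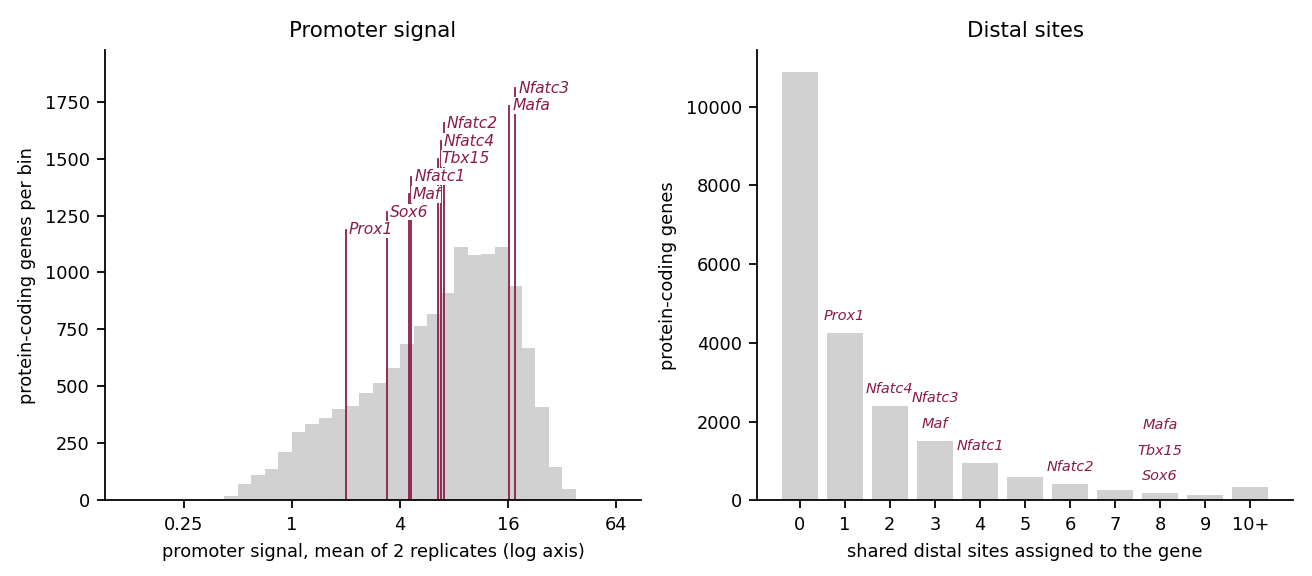
Left, promoter signal of all protein-coding genes with a shared promoter site (grey, mean of both replicates, log axis), with lines for the 9 genes, from Prox1 at 1.99 to Nfatc3 at 17.5. Right, number of protein-coding genes (grey) by the number of shared distal sites assigned to them, with the 9 genes written above their bar, from Prox1 with 1 to Sox6, Tbx15 and Mafa with 8 each.

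Away from promoters, 43 shared distal sites were assigned to the 9 genes, and each gene had at least 1, against 50.4% of all protein-coding genes. Prox1 lost its only one with the stronger 50% of peaks and with the nearest start of any annotated gene, while the other 8 genes kept at least 1 under every alternative run. The median was 4 sites per gene, against 1 over all genes. Of the 43 sites, 21 lay in the body of their own gene, 15 between genes and 7 in another gene. A further 18 shared sites lay inside Sox6 (5), Nfatc1 (7) and Nfatc2 (6) beyond the 50 kb limit. With 32 promoter sites this made 93 sites in all. Not counted among them is a shared site in a coding exon of Nfatc3 (chr8:106108167-106108331, 0.848 and 1.11), whose nearest coding start belongs to Esrp2. The 9 genes differ in length, from 2.74 kb for Mafa to 568 kb for Sox6, and the number of sites was not adjusted for it.

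**Figure D3:**
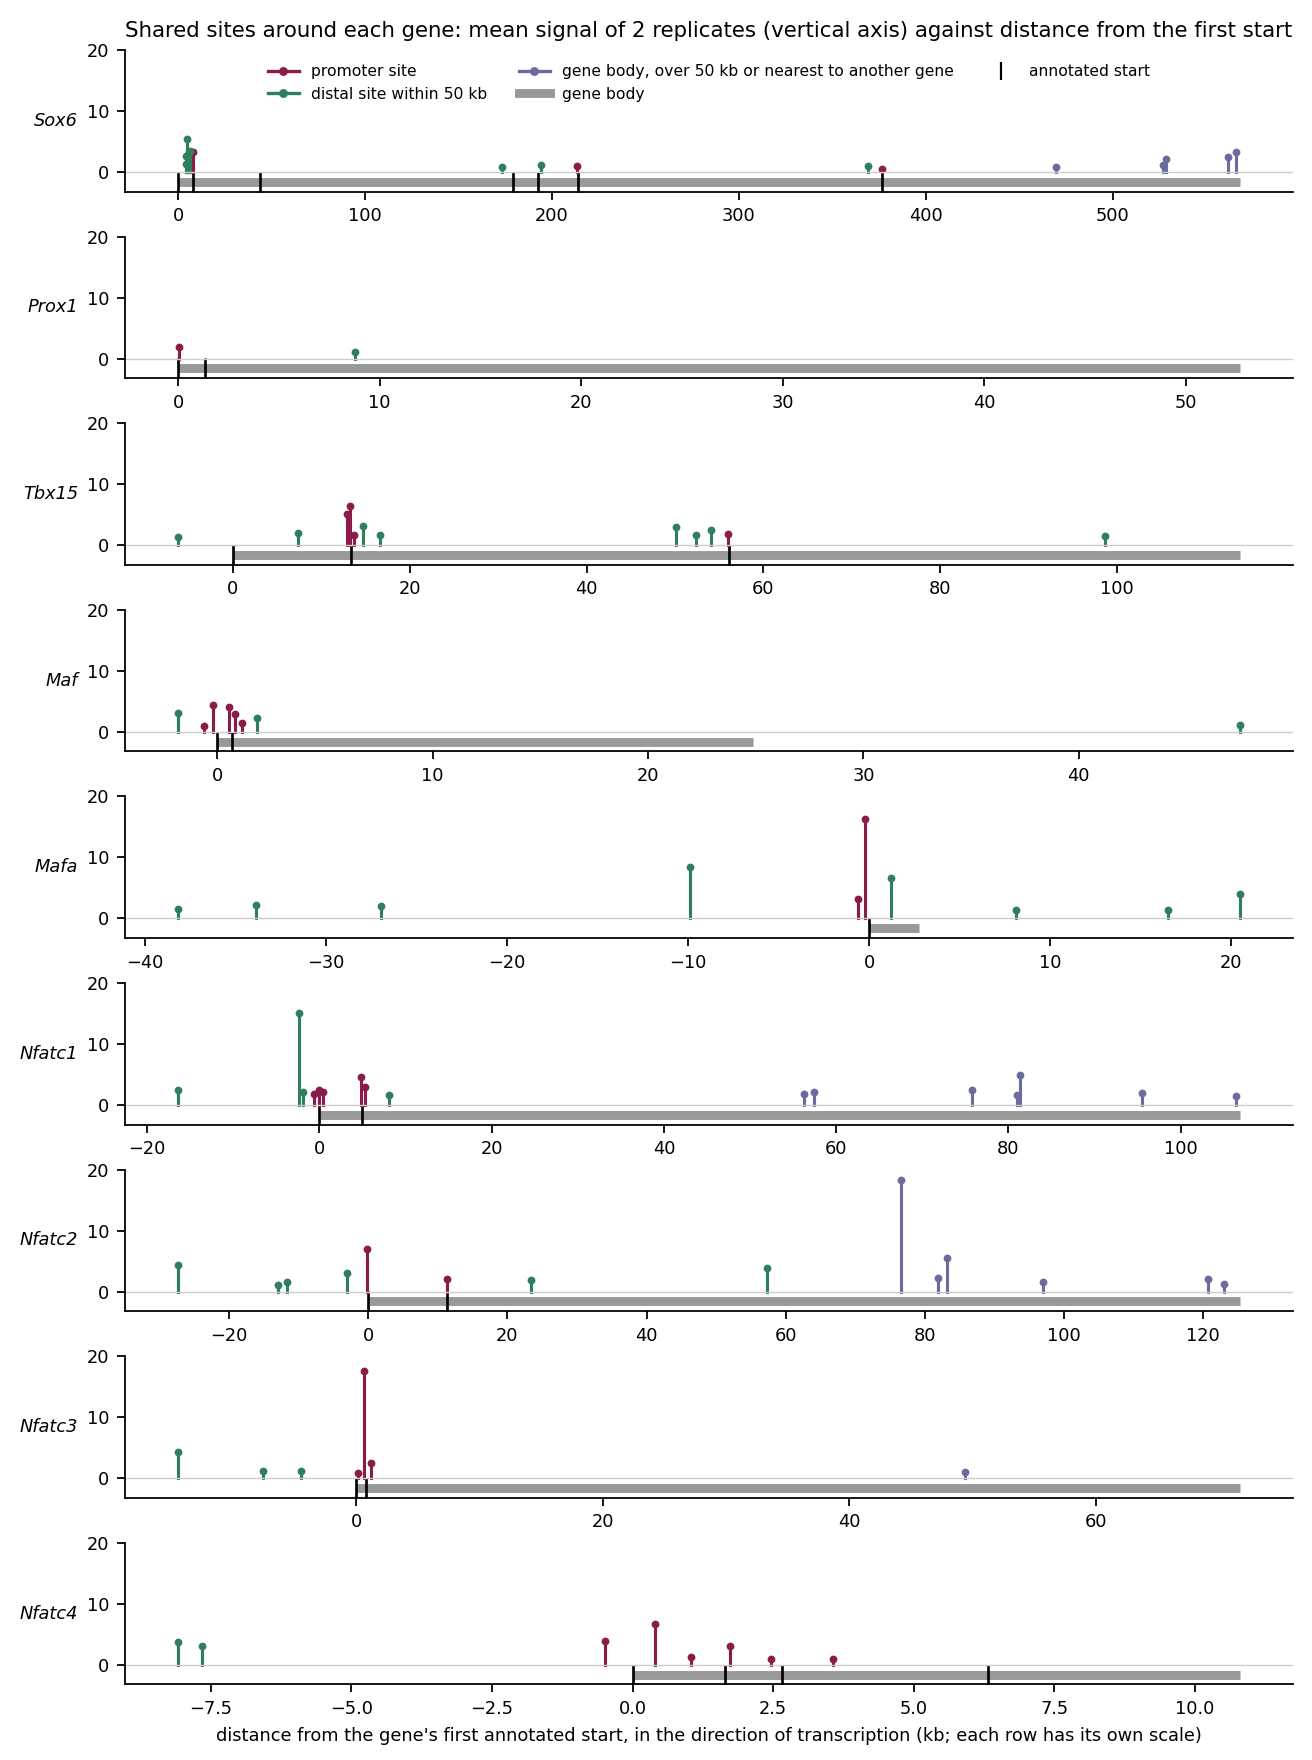
Shared sites around each of the 9 genes, with mean signal of both replicates (vertical axis, 0 to 20 in every row) against the distance in kb from the most upstream annotated start, in the direction of transcription. Red stems are promoter sites, green stems distal sites and violet stems other sites in the gene body. The grey bar is the gene body and black ticks are annotated starts. The tallest stems outside promoters are in an Nfatc2 intron (mean 18.3) and upstream of Nfatc1 (mean 15.1).

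The strongest site of Nfatc2 (chr2:168476410-168601657, - strand) was in an intron and not at a promoter. The Nfatc2 site whose sequence heads the list of introns (chr2:168525001-168525180) reached 20.4 in replicate 1 and 16.2 in replicate 2, which placed it at rank 1393 of 68349 shared sites. The range of these values overlapped that of the Nfatc3 promoter (19.5 and 15.5), so the highest sites of these genes were not told apart by range. Within each replicate the Nfatc2 site was the higher. This Nfatc2 site exceeded both Nfatc2 promoters in both replicates (start 1, 7.90 and 6.08, and start 2, 2.16 and 2.08). It lay 65.1 kb inside the gene from the nearest start of a coding transcript, and 27186 bp from the nearest annotated start of any transcript. Nfatc2 encodes NFAT1, a form abundant in T cells and also present in muscle. The second site of its introns beyond 50 kb, chr2:168518421-168518620, overlapped an annotated untranslated exon and had 6.00 and 4.97. The weaker site printed above, chr2:168544261-168544420, had 3.99 and 3.61. The sites upstream of the gene were all weaker than its start 1 promoter. The most distant (27.3 kb) had 4.32 and 4.58 and held a match to the motif of CTCF, the insulator factor, in footprints of both replicates. Between it and the gene, a site 3.10 kb upstream had 3.31 and 2.71, and one 11.6 kb upstream had 1.74 and 1.39. An intronic site 11.9 kb from start 2 had 1.68 and 2.05, and the last distal site had a mean of 1.12. The number of distal Nfatc2 sites was 6, and 11 with replicate 1 alone.

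Nfatc3 (chr8:106058840-106130537, + strand), whose product NFAT4 is widely expressed, showed the opposite arrangement. Its site at start 2 (chr8:106059401-106059600) was, with that of Mafa, at the highest promoter level of the 9 genes, and its 3 distal sites were weak by comparison. The strongest of these, in an intron of the neighbour Dus2 14.4 kb upstream, had 4.59 and 4.04, and the others, 7.58 and 4.43 kb upstream, had 1.25 and 1.12, and 1.26 and 1.12. Start 1 of Nfatc3 lies less than 1 kb from start 2 and so shares its peak. Counting only peaks nearer to start 1, its signal was 0.848 and 0.964.

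Nfatc4 (chr14:55823144-55833943, + strand), which encodes NFAT3, had 6 shared promoter sites, the most of the 9 genes, spread over 3 of its 4 starts. Start 1 (site chr14:55823361-55823740, in an intron) had 6.90 and 6.57 and start 2 had 3.47 and 2.58, with replicate ranges that did not overlap. The RefSeq annotation has 1 start for Nfatc4, which coincides with start 2, so the stronger peak stands at a start that GENCODE alone gives here. Peaks nearest to start 3 had 1.01 and 1.06. Its distal sites were a pair 8.08 and 7.65 kb upstream, with 3.90 and 3.62 for the printed one and 3.23 and 2.94 for the other. The number of distal Nfatc4 sites rose from 2 to 4 with replicate 1 alone, and also with a promoter window of 500 bp. With a window of 2500 bp, start 2 took in the peak of start 1, and its mean went from 3.02 to 6.74.

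Nfatc1 encodes NFATc1, the NFAT protein linked to slow fibres, and the gene has an upstream and a downstream start that give proteins with different N-termini. Start 1 had 2.28 in replicate 1 and 2.92 in replicate 2, from different peaks around it. Start 2 had 4.75 and 4.47, above start 1 in both replicates. This order held for the 1 kb window and turned with one of 2500 bp, which takes in a distal site upstream of start 1: its mean then went from 2.60 to 15.1, while that of start 2 stayed at 4.61. The strongest Nfatc1 site was neither, but that distal one, 2.41 kb upstream of start 1, with 16.0 and 14.2. Like the site in the Nfatc2 intron, it exceeded every promoter site of its gene in both replicates, and it held 4 footprints of replicate 1 and 5 of replicate 2. The 7 sites deep in the gene body, 51.3 to 102 kb from the nearest coding start, had mean signals of 1.52 to 4.94, and the highest of them had 5.76 and 4.13. A distal site 16.4 kb upstream, with 2.36 and 2.54, held a CTCF match in footprints of both replicates. The other distal sites, 1.88 kb upstream of start 1 and 3.18 kb downstream of start 2, had 2.18 and 2.24, and 1.57 and 1.68. Over the 4 NFATc genes together, Nfatc1 and Nfatc2 held all 13 sites beyond 50 kb, and Nfatc3 and Nfatc4 held none; the last 2 are also the shorter genes (71.7 and 10.8 kb, against 107 and 125 kb).

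Of the MAF genes examined, Mafa had the stronger promoter and Maf the more divided one. Mafa (chr15:75745490-75748228, - strand) has a single annotated start. Its promoter site (chr15:75748321-75748580) had 17.8 and 14.7, and a weaker site next to it 3.57 and 2.98. Mafa is best known as an activator of insulin genes in pancreatic beta cells. Of its 8 distal sites the strongest lay 9.87 kb upstream in an intron of Zc3h3 (chr15:75757961-75758240) and had 9.86 and 6.95. A site in the coding exon of Mafa itself (chr15:75746901-75747100) followed with 7.45 and 5.91. Next came an intergenic site 20.5 kb downstream, with 4.48 and 3.49. All 4 distal sites upstream of Mafa fell in that neighbour, a zinc finger gene. Inside Zc3h3, sites 33.8 and 26.9 kb upstream had 2.12 and 2.20, and 2.24 and 1.93, the latter being the printed one. The remaining 3 had mean signals of 1.39 to 1.56. Assignment to Mafa by nearest start does not show which gene a site acts on, and no contact between a site and a gene was measured. With the nearest start of any annotated gene, noncoding ones included, the number fell to 3.

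Maf (chr8:115682942-115707794, - strand) carried 5 shared promoter sites along 2 starts less than 1 kb apart. The strongest, upstream of start 1 (chr8:115707921-115708100), had 4.59 and 4.38. Of the sites nearer to start 2 than to start 1, the strongest (chr8:115707081-115707420) had 4.51 and 3.52. The other 3 had mean signals of 1.00 to 2.96. Its distal sites were the printed one 1.82 kb upstream (3.00 and 3.05), one in the coding exon (2.75 and 1.90) and one 46.8 kb downstream (1.10 and 1.04).

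Sox6 (chr7:115470872-116038796, - strand), the longest of the 9 genes, was open at 3 of 7 starts, and its strongest site was at none of them. Start 2 (site chr7:116030721-116031360) had 3.53 and 3.23, start 6 had 1.03 and 1.13, and start 7 had 0.650 and 0.479. The replicate ranges of these starts did not overlap. With the stronger 50% of peaks, start 2 alone kept a peak in both replicates, and with a window of 500 bp start 6 was lost, since its peaks lie further upstream than that. The strongest Sox6 site lay 2.84 kb upstream of start 2, at chr7:116033761-116034020, with 5.70 and 5.04. It was classed as distal by the protein-coding starts of GENCODE. The RefSeq annotation places a predicted Sox6 start 17 bp from its midpoint. On RefSeq as a whole Sox6 has 17 starts, of which 5 had a strict peak in both replicates and 11 had none. Of the 17, 11 lie over 1 kb from every start of a coding GENCODE transcript. The 2 most upstream RefSeq starts share their peak, which had 4.29 and 3.75, above start 2 in both replicates. It is not among the sites assigned to Sox6 here.

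Around start 2 the Sox6 sites formed a cluster: 5 distal sites lay 1.31 to 3.59 kb upstream, with mean signals of 1.37 to 5.37. Besides the strongest, they were the sites 1.31 kb (3.79 and 3.02), 2.05 kb (3.25 and 3.21), 3.59 kb (2.37 and 2.96) and 3.32 kb upstream (1.30 and 1.44). These sites are distal only by starts of protein-coding GENCODE transcripts. All but the one at 1.31 kb lay 127 to 502 bp from a GENCODE start of another Sox6 transcript. The same sites lay 17 to 807 bp from a RefSeq Sox6 start. The one at 1.31 kb lay 381 bp from a start of the annotated gene Sox6os. The other 3 distal sites, inside the gene, were weaker, at 0.875 to 1.17. Deep in the gene body, 5 sites lay 93.4 to 189 kb from the nearest start. The strongest of these overlapped an annotated untranslated exon near the end of the gene (chr7:115472921-115473120) and had 3.54 and 3.12. A site in a coding exon (chr7:115477001-115477180) had 2.24 and 2.84, and the printed intron site had 2.27 and 2.10. Sox6 had 17 sites, the most of the 9 genes, but 2.99 per 100 kb of gene body, the fewest.

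Tbx15 (chr3:99240381-99354259, + strand) was open at 2 of its 3 starts. Start 2 (site chr3:99253581-99253760) had 6.85 and 6.20 and start 3, in the gene body, had 1.94 and 1.77. A group of 3 shared promoter sites stood around start 2, the second of them (chr3:99253141-99253380) with 5.22 and 4.97. Of 8 distal sites, 7 lay within the gene and 1 in the neighbouring gene Wars2. The strongest, 1.29 kb downstream of start 2, had 3.81 and 2.66, and the printed one, 6.01 kb upstream of start 3, had 3.21 and 2.63. Between the printed one and that start, a site 2.08 kb upstream of start 3 had 2.65 and 2.47. Of the sites nearest to start 2, 1 had 2.46 and 1.68, at 6.01 kb upstream, and another had 2.01 and 1.51, at 3.28 kb downstream. The remaining 3 had mean signals of 1.39 to 1.69. The site at start 3 lay 42348 bp from the nearest RefSeq start of the gene, so its place as a promoter rests on GENCODE.

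Prox1 (chr1:190118035-190170714, - strand) was the least open of the 9 genes, with 1 promoter site and 1 distal site. The promoter site (chr1:190170521-190170840) had 1.69 in replicate 1 and 2.29 in replicate 2. Prox1 start 2 had a strict peak of 0.841 in replicate 1, and its permissive peak in replicate 2 had 0.811. The distal site, in a coding exon 7.47 kb downstream (chr1:190161852-190162000), had 1.05 and 1.27. The number of distal Prox1 sites changed with the processing: it was 7 with the permissive lists, 5 with a limit of 100 kb, 0 with the stronger 50% of peaks or with the nearest start of any annotated gene, and 2 with replicate 1 alone.

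Footprints were found at 89 of the 93 sites (95.7%, Wilson 95% interval 89.5 to 98.3%, which covers counting error over sites only). Over all shared sites, weighted to the same quartiles of signal, the share was 97.3%. Distal sites had footprints at 42 of 43 (98.9% of all distal sites), sites deep in gene bodies at 18 of 18 (99.0% of all sites beyond 50 kb) and promoter sites at 29 of 32 (91.4% of all promoter sites), each near the share of its class. At 80 of the 93 sites a footprint of one replicate overlapped a footprint of the other. The 4 sites with none in either replicate were 1 distal site of Sox6, 1 promoter site of Tbx15 and 2 promoter sites of Maf, with mean signals of 1.00 to 1.76.

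Motif matches were counted in 150 bp around the midpoint of each site, on both strands, beside the share of all shared sites of the same class that held a match. CAGCTG, the E-box of myogenic factors, was in 16 of 43 distal sites (37.2%, interval 24.4 to 52.1%), against 24.5% of all distal sites, and these belonged to 8 of the 9 genes. SOX matches were in 6 distal sites (14.0%, interval 6.56 to 27.3%) of 4 genes, among them 2 sites each of Sox6 and Tbx15, against 3.53%. Only 2 of these 6 sites had a SOX match in a footprint of at least 1 replicate. SP/KLF matches were in 13 distal sites (30.2%, interval 18.6 to 45.1%), against 12.2%, but in 11 of 32 promoter sites (34.4%), against 51.7%. Median GC content of the windows was 56.7% for the 43 distal sites and 55.3% for all distal sites. Sites of 1 gene share their surroundings and the genes were few, so these shares describe the loci and carry no test.

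NFAT matches were no more frequent than in the background at distal sites, at 4 of 43 (9.30%) against 13.7%. They were in 4 of 32 promoter sites (12.5%, interval 4.97 to 28.1%), all of NFATc genes (2 of Nfatc1, 1 each of Nfatc2 and Nfatc4), against 6.31%. Each of those 4 sites had a match in a footprint of at least 1 replicate. Deep in the gene bodies NFAT matches were in 6 of 18 sites (33.3%, interval 16.3 to 56.3%), against 16.5% of all shared sites beyond 50 kb, and 2 of the 6 had a match in a footprint. AP-1 matches were in 4 of 43 distal sites, against 7.50%, and in 1 of 18 deep sites, against 8.70%. None of the 32 promoter sites held an AP-1 match, against 2.39%. MAF matches were in 1 of 43 distal sites, assigned to Mafa, against 4.26%, in 2 of 18 deep sites, both in Sox6, against 4.71%, and in none of the 32 promoter sites, against 2.29%. Matches to MEF2 and to MEF3 (TCAGGTTTC) were in none of the 93, where the background at distal sites was 0.556% and 0.322%. T-box matches (AGGTGTGA) were in 2 of the 18 deep sites, 1 in Sox6 and 1 in Nfatc2, against 0.298% of all sites beyond 50 kb, and in no other. Neither of these 2 matches lay in a footprint.

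**Figure D4:**
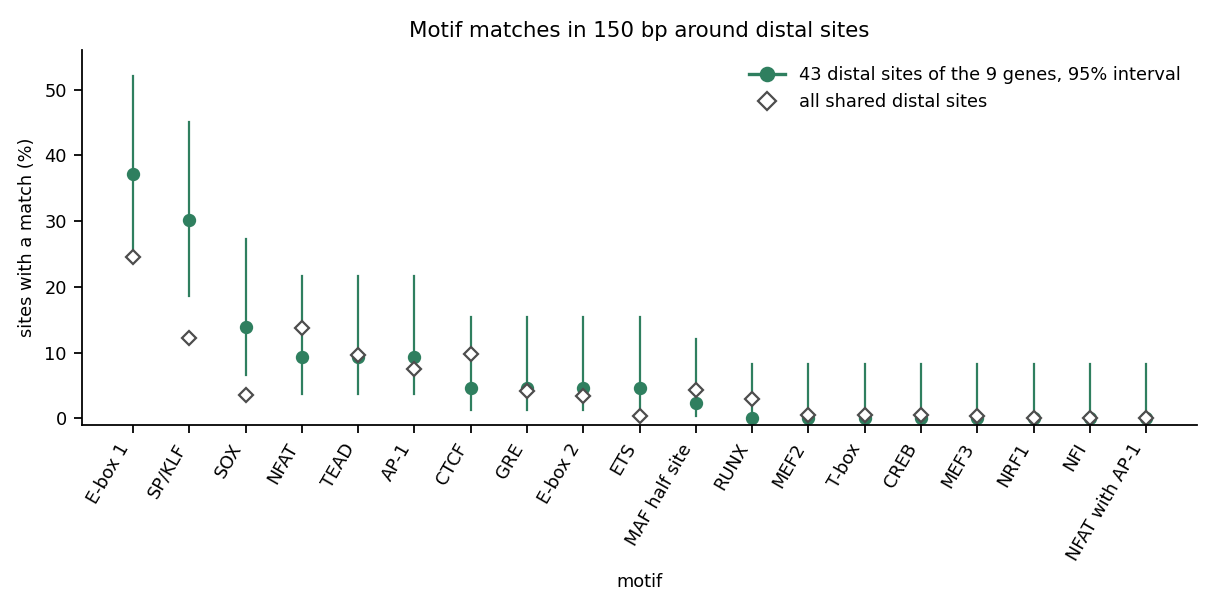
Share of the 43 distal sites of the 9 genes with a match to each of 19 motifs within 150 bp (green points, with Wilson 95% intervals), beside the share of all shared distal sites (open diamonds). E-box 1 is CAGCTG and E-box 2 is CACGTG. The intervals of SP/KLF, SOX and ETS lie above their diamonds, and ETS rests on 2 sites.

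Replicate 2 differed from replicate 1 at these sites about as much as elsewhere. The log2 ratio of replicate 2 to replicate 1 was centred on its median over all 68349 shared sites (-0.14, SD 0.30). Of the 93 sites, 24 (25.8%) lay more than 1 SD from that median, against 28.6% of all shared sites. The centred ratio ranged from -0.80, at a distal Sox6 site with 1.15 and 0.598, to 0.66, at the Nfatc1 start 1 site with 2.05 and 2.92. Both Prox1 sites were higher in replicate 2, by 0.58 at the promoter and 0.42 at the distal site. With 1 library on each side these ratios have no test. The labels name sequencing instruments for replicate 2 alone, so a sequencing batch cannot be told apart from the replicate.

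**Figure D5:**
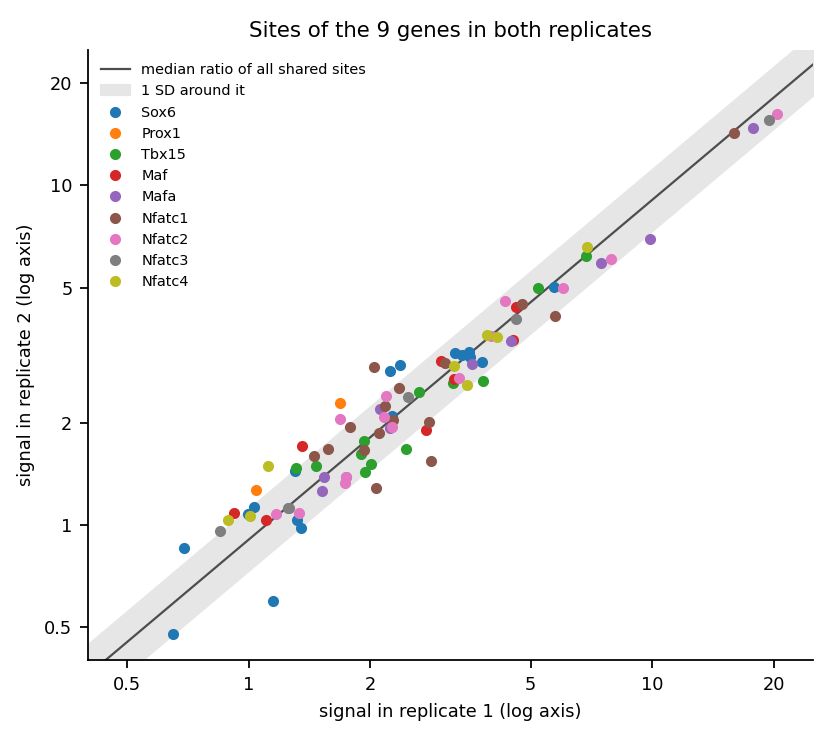
Signal of the 93 sites in replicate 1 (horizontal) and replicate 2 (vertical), both on log axes, coloured by gene. The line is the median ratio of all 68349 shared sites and the grey band is 1 SD (0.30 on the log2 scale) to each side. Most points lie in the band, both Prox1 points lie above it and 24 points lie outside.

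The genes around this network were described from lists by role. In the calcineurin pathway, which activates the NFATc proteins, 18 of 20 genes had a shared promoter site (62.6% of all genes), with a median signal of 8.53. The highest were Ppp3ca, the catalytic subunit of calcineurin (32.1 and 26.3), and 2 kinases that act against it on NFAT, Gsk3b (26.1 and 21.5) and Dyrk1a (24.7 and 20.3). Ppp3r2, the testis form of the regulatory subunit, and Myoz2, a calcineurin-binding protein of slow fibres, had no strict promoter peak. All 22 partner and upstream genes had a shared promoter site, with a median signal of 6.94 and 164 distal sites. Hdac4 (34.8 and 26.5), a deacetylase that restrains MEF2, led them and alone had 18 distal sites. It was followed by Ppard (22.9 and 21.02), a nuclear receptor of oxidative fibres, and Hdac5 (18.8 and 16.2), a relative of Hdac4.

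Of 12 family relatives, 7 had a shared promoter site, a share near the 62.6% of all genes. Among the highest were the small MAF gene Mafk (18.0 and 14.3) and the calcineurin-independent Nfat5 (12.3 and 10.3). Sox5, Prox2, Tbx1 and Nrl lacked a strict promoter peak, and Tbx22 had one (0.512) in replicate 2 alone. Among genes that mark the fibre types, 11 of 14 fast-fibre genes and 7 of 14 slow-fibre genes had a shared promoter site. The highest fast-fibre promoters were those of the myosin light chain gene Mylpf (11.7 and 10.1), of Actn3 (10.05 and 10.004) and of Mybpc2 (10.4 and 8.91), and the highest slow-fibre ones those of Tpm3 (12.2 and 10.2), Atp2a2 (9.20 and 8.87) and Mb (2.90 and 1.79). The fast ones without were the myosin genes Myh1, Myh2 and Myh4. The slow ones without any strict promoter peak were Myh7, Myh7b, Tnni1, Tnnc1 and Myoz2, while Myl2 and Csrp3 had one in a single replicate.

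The tissue label was checked on marker genes, and promoters of markers of other cell types were open as well. All 8 muscle fibre markers had a shared promoter site, among them Ckm (13.1 and 8.99), as had 6 of 7 endothelial, 4 of 5 fibro-adipogenic, 2 of 4 Schwann cell and 1 of 6 macrophage markers. The share over all protein-coding genes was 62.6%, so an open promoter of a single marker says little about its cell type. Of the lymphatic endothelial markers, which bear on Prox1, Lyve1 and Flt4 had no strict promoter peak, Pdpn had 4.27 and 3.93, and Reln had 0.657 and 0.585. None of 8 lymphocyte markers, which bear on Nfatc2, had a shared promoter site, and Lck alone had a strict promoter peak, of 0.615 in replicate 1. Of 4 pancreatic islet markers, listed for Mafa, Ins2 (2.92 and 2.37) and Nkx6-1 (2.27 and 1.91) had one. The part of these other cell types in the signal of the 9 genes was not tested.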

How the data were processed

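DNase-seq peak lists, footprint lists and per-base files of 2 libraries of gastrocnemius were used, all on mm10 per the labels. Names of the aligner and callers were not given in the sources used here. Column 7 of the deposited peak lists, the signal, is the authors' value per peak, with no scaling stated. Signals below 5 were whole multiples of a step particular to the library (within 0.05 of that step for 100% of them). Higher signals were not checked for this. The deposited footprints carry a q-value (false discovery rate) level of 0.01, and the deposited per-base files list q-values below 0.05. Of each library's 2 peak lists, the one with fewer rows was taken as strict. Peaks overlapping by at least 1 bp were merged across replicates. Starts came from protein-coding transcripts of GENCODE M21, and RefSeq starts on the same build were added after seeing the data. Assignment, motif search and shares were computed with Python 3.11.15 and NumPy 2.4.6, and tested on simulated data with 318 planted sites and 950 planted motif matches, all recovered. All 9 genes are named, with the strongest promoter site and up to 5 distal sites of each in full; other genes are named as the 3 highest of a list and those without a peak, except a few items that are not reported here. The genes, lists and motifs were chosen with earlier results of these data known. No test was run, since the series has 1 group. The alternatives were other peak sets, overlaps, windows, limits and starts, and each replicate alone.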

Additional observations from a re-analysis of the deposited data

How the results depend on the processing

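All 9 genes kept a shared promoter site under every alternative run. The median signal over open starts was 3.93 (18 starts). It was 3.20 with the permissive lists, 4.48 with the stronger 50% of peaks, 3.38 and 4.48 with promoter windows of 500 and 2500 bp, 4.48 with the starts of all annotated transcripts, and 3.53 to 3.81 with a single replicate. RefSeq starts, chosen after seeing the data, gave 4.02. The 43 distal sites became 69 with the permissive lists, 26 with the stronger 50% of peaks and 47 to 58 with a single replicate. The median of 4 per gene became 7 with the permissive lists, 8 within 100 kb and 5 to 6 with a single replicate. The share of sites with a footprint, 95.7%, was 86.0% when a footprint of both libraries was asked for and 87.0 to 90.4% with a single replicate. Pairs of a site and a motif fell from 100 to 62 when the match had to lie in a footprint. Of 240 values for single starts and genes, 32 moved, 25 of them counts of distal sites. The others were 7 of 141 start signals, and this low count does not show that start signals are stable. With the permissive lists and the stronger 50% of peaks, an open start kept its strongest peak and so its value. Starts that lost their peak were left out of the count. A single replicate was compared with a mean that includes it. No paired analysis was possible because the series has 1 group. Unknown read depth limits what the absence of a peak shows.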
